A study of Mus musculus with 18 samples.

Results

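The genes described here encode the proteins of the cytosolic ribosome, followed across 18 mouse RNA-seq libraries. Members were the protein-coding genes whose symbol is Rpl or Rps with a number and an optional a or x, or Rplp0, Rplp1 or Rplp2, so pseudogenes and the copies of Rps3a were not members. The rule found 74 of 37620 counted genes, 45 of the large and 29 of the small subunit. Rpl24 met the rule by its symbol and is not analysed here. All 74 members had counts in all 18 libraries, the lowest being 42, and all 74 passed the filter on low counts in every fit.

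The mice were C57B6/129 hybrids, male and female, given 2 mg/ml doxycycline in drinking water at 6 to 8 weeks of age to induce histone H3 constructs. K9M mice were labelled for H3 with methionine at lysine 9 and K36M mice for H3 with methionine at lysine 36, and the controls were labelled wildtype (WT). Per the title, the study uses such inducible mutants to probe what methylation at a given histone site does in the animal. The labels used here give neither the promoter that drives the constructs nor whether WT mice carried an unmutated one. Polyadenylated RNA came from lineage-negative, cKit-positive bone marrow cells, which hold blood stem and progenitor cells, from intestine and from testes. There were 9 groups of 2 libraries, with 1 mouse behind each library. A set of 6 mice, named in the labels, gave both intestine and testes, and 6 others gave marrow. Pairs of values give the first and then the second mouse of a group, in the order of the labels. Within a tissue each p-value measures spread between mice. Fits of 18 libraries treated the intestine and testes libraries of 1 mouse as independent. A fit with the mouse as a block was an alternative.

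A ribosome joins a small subunit, which reads the mRNA, to a large subunit, which forms the peptide bond, and each holds a set of proteins bound to ribosomal RNA. Most of these proteins are needed in equal numbers, and in mammals a single active gene usually encodes each, beside many silent processed copies. Their mRNAs start with a run of pyrimidines, the 5' terminal oligopyrimidine (TOP) tract, through which growth signals acting by mTOR control their translation. In the male germ line the X chromosome is silenced during meiosis, and autosomal retrocopies such as Rpl10l and Rpl39l are known to stand in for X-linked parents there.

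Counts assigned to genes ran from 13396303 to 21417915 per library, and reads without a unique alignment from 15.3% to 29.1% of all entries, which can touch members with near-identical copies. Xist stood at 2153 to 3388 CPM (counts scaled to a common library total) in the marrow libraries with Ddx3y at 0, whereas in intestine and testes Xist was at most 3.29 CPM and Ddx3y at least 16.2 CPM. Tissue and sex therefore cannot be told apart in comparisons with marrow. The markers that define each labelled tissue were present, with summed levels of 624 CPM or more for 6 blood progenitor genes in marrow, 16520 CPM or more for 6 enterocyte genes in intestine and 871 CPM or more for 5 round spermatid genes in testes. Replicate mice differed over the members by more than counting noise: the chi-square divided by its degrees of freedom was lowest in K9M testes (2.46) and highest in WT intestine (281). The first WT intestine library stood apart: 5 elongating spermatid genes summed to 214.7 CPM there and to at most 24.6 CPM in the other intestine libraries. Fits without this library are given below for some results, and the part of the spermatid transcripts in them was not tested. In such bulk samples, fewer cells of a type and less RNA per cell cannot be told apart.

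Ribosomal protein mRNA made up 4.39% to 4.999% of gene counts in marrow progenitors, 0.458% to 1.21% in intestine and 0.601% to 0.671% in testes. Marrow shares were 4.999% and 4.94% in WT, 4.91% and 4.69% in K9M and 4.50% and 4.39% in K36M, and the 3 genotypes did not overlap. Intestine shares were 0.998% and 0.566% in WT, 0.458% and 0.589% in K9M and 0.818% and 1.21% in K36M, so the WT mice spanned much of the range there. Testes shares were 0.601% and 0.640% in WT, 0.671% and 0.658% in K9M and 0.630% and 0.630% in K36M, a narrow range.

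**Figure D1:**
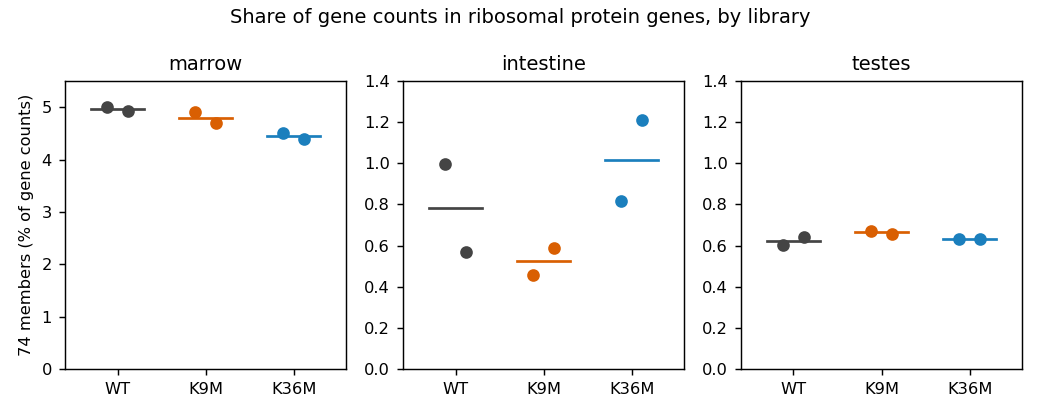
Share of gene counts in the 74 members, in percent, for each library (points) with the mean of each group (lines); the axis of the marrow panel is longer than the others. Marrow libraries lie between 4.39% and 4.999%, intestine and testes libraries at or below 1.21%.

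Between WT tissues, every member was lower in intestine than in marrow. With edgeR's quasi-likelihood test on 18 libraries and a Benjamini-Hochberg adjusted p under 0.05, 74 of 74 members were called lower and 0 higher, where 29.4% of all genes were called lower and 34.8% higher. The members' median log2 fold change was -1.73, against 0.03 over all genes. Levels in comparisons between tissues are CPM scaled over the 18 libraries. Rpl3, a large subunit protein at the peptidyl transferase centre, stood at 825 and 799 CPM in WT marrow and 186 and 75.9 in WT intestine (log2 -2.63 ± 0.35, SE). Rps6, the small subunit protein phosphorylated by S6 kinase, went from 369 and 358 to 92.9 and 43.9 CPM (-2.41 ± 0.28). Rpl14 had -2.29 ± 0.28 and Rps4x -2.26 ± 0.30, and adjusted p for these 4 lay between 3.115e-06 and 1.334e-05. At the other end, Rps27 changed least, from 336 and 324 to 212 and 140 CPM (-0.91 ± 0.16). No library of either tissue overlapped the other for any member. Scaling by library size alone moved the median over all genes to -0.45 and left 74 of 74 called lower.

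In WT testes every member was lower than in marrow, and most were lower than in intestine after scaling over the 18 libraries. As shares of gene counts, the WT intestine mice (0.998% and 0.566%) lay on both sides of the WT testes mice (0.601% and 0.640%). Against marrow, 74 of 74 were called lower (background 33.6%) and 0 higher (48.6%), with a median log2 fold change of -2.73 against 0.67 over all genes (0.37 by library size alone, with 74 called lower). Against intestine, 53 of 74 were called lower (33.2%) and 0 higher (48.2%), with a median of -1.07 against 0.72, and the 2 tissues did not overlap for 52 of the 53. Without the first WT intestine library the split against intestine was 41 lower and 6 higher and the median -0.53. With library size alone as the scale it was 30 lower and 7 higher, and the median over all genes moved to 1.33. Members that differed little between testes and intestine included Rps24, at 140 and 153 CPM in testes and 184 and 97.7 in intestine, and Rps7, the highest of all at 0.21 ± 0.27. The fall from marrow to testes was smallest in Rpl41 (-1.25 ± 0.21) and Rps27 (-1.41 ± 0.16), which also varied least over the 18 libraries, with an SD of 0.58 and 0.60 on the log2 scale.

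Per kilobase of transcript, the WT order of the members differed between tissues. Rplp1, a stalk protein of the large subunit, was highest in marrow at 1590 ± 11.2 CPM per kb (SD, n = 2). In intestine Rplp1 (565 ± 267) and Rpl41 (563 ± 221), the smallest ribosomal protein, could not be ordered within their spread. Rpl41 led in testes at 446 ± 4.28 CPM per kb, followed by Rps27 at 359 ± 18.3. Rpl35 was lowest per kb in marrow (68.9 ± 4.66) and intestine (16.9 ± 8.58). In testes 3 X-linked members were lowest, Rpl39 at 5.49 ± 1.09, Rpl36a at 6.10 ± 1.53 and Rps4x at 12.5 ± 0.681 CPM per kb, of which Rpl39 and Rpl36a did not differ beyond their spread.

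The 4 members on the X chromosome set the testes apart. Rps4x, a small subunit protein, stood at 1094 and 1071 CPM in WT marrow, 306 and 146 in WT intestine and 11.7 and 12.7 in WT testes. Rpl36a stood at 198 and 189 CPM in marrow, 66.8 and 29.9 in intestine and 2.43 and 3.47 in testes. For Rpl39, which lines the peptide exit tunnel, the values were 175 and 155, then 66.7 and 32.0, then 2.89 and 3.83 CPM. Rpl10, which completes the large subunit late in its assembly, went from 640 and 590 through 267 and 185 to 14.7 and 16.6 CPM. The order marrow, intestine, testes held for each, with no overlap of libraries.

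Testes against marrow, the log2 fold changes were -6.47 ± 0.37 for Rps4x, -6.02 ± 0.36 for Rpl36a, -5.61 ± 0.34 for Rpl39 and -5.30 ± 0.22 for Rpl10, the 4 largest falls of the 74. The next member, Rps3, had -4.43 ± 0.31, and the median of the 70 autosomal members was -2.65. Against intestine the 4 also fell most, Rps4x by 4.21 ± 0.33, Rpl36a by 4.02 ± 0.34, Rpl39 by 3.87 ± 0.33 and Rpl10 by 3.85 ± 0.21 on the log2 scale, followed by Rps3 (-2.52 ± 0.28). Adjusted p for these 8 results was 7.812e-08 or less in edgeR's quasi-likelihood test. Of 849 other X-linked genes tested, 413 were higher and 310 lower in testes than in marrow, with a median of 0.75 and a lower quartile of -2.13, and the difference between them and the 4 members was not tested.

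Of 4 autosomal paralogs of X-linked members, 3 were highest in testes. Rpl10l had 1 count over the 6 marrow libraries, 8 over the 6 intestine libraries and 15805 over the 6 testes libraries, at 157 and 154 CPM in WT testes. Rpl39l had 96, 26 and 19467 counts, and stood at 173 and 184 CPM in WT testes. Rps4l rose as well, from 6.01 and 5.15 CPM in WT marrow to 31.4 and 16.6 in intestine and 63.0 and 62.9 in testes (testes against marrow 3.50 ± 0.34). Rpl36al did not follow them: it stood at 93.6 and 95.7 CPM in marrow and 29.5 and 27.5 in testes. Coding sequences of the pairs shared 84.74% of bases for Rpl10 and Rpl10l, 84.97% for Rpl39 and Rpl39l and 87.74% for Rpl36a and Rpl36al, with identical stretches of at most 23, 38 and 24 bases.

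**Figure D2:**
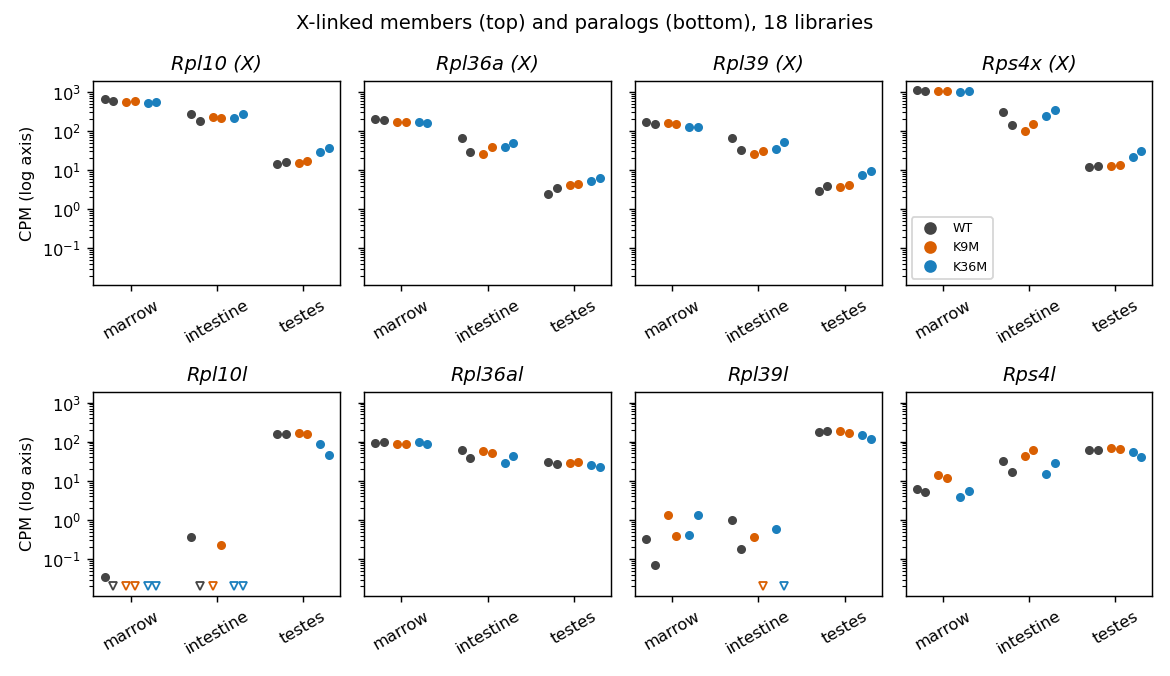
CPM scaled over 18 libraries, on a log axis, of the 4 X-linked members (top) and of a paralog of each (bottom) in every library, coloured by genotype; open triangles mark libraries with no count. The X-linked members fall from marrow to testes, whereas Rpl10l and Rpl39l lie above 45 CPM in all 6 testes libraries and below 2 CPM elsewhere.

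Start-site sequences of these genes are shown because the X-linked members and their testis paralogs moved apart, and because the TOP tract is the feature that ribosomal protein genes are best known to share. Each runs 5′ to 3′ on the gene's strand from 60 bases before the RefSeq start to 20 bases after it, in build GRCm38.p6, with the longest run of pyrimidines in capitals. Where runs tie in length, as in Rpl10l, the capitals mark the first. Rpl7a, which has the longest run of the matched members, and Rpl35 are added for their long runs.
Rpl10 (chrX:74270756-74270835, plus strand): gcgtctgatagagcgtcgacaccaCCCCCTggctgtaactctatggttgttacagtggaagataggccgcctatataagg
Rpl36a (chrX:134585594-134585673, plus strand): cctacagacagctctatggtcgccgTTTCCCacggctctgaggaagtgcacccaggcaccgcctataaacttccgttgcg
Rpl39 (chrX:37085203-37085282, minus strand): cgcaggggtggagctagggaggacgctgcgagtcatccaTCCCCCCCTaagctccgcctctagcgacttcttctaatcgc
Rps4x (chrX:102189372-102189451, minus strand): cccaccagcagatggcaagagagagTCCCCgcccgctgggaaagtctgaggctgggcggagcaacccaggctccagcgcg
Rpl10l (chr12:66284382-66284461, minus strand): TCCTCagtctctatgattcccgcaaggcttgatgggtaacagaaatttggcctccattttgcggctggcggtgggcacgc
Rpl39l (chr16:10170168-10170247, plus strand): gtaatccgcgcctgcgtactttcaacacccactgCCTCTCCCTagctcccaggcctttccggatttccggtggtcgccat
Rpl7a (chr2:26910747-26910826, plus strand): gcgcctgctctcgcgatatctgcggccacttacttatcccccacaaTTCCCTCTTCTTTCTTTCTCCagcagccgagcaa
Rpl35 (chr2:39005112-39005191, minus strand): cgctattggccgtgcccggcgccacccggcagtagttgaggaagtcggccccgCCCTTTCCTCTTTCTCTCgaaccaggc
The longest run was 6 bases in Rpl10 and Rpl36a, 9 in Rpl39 and 5 in Rps4x, against 5 in Rpl10l and 9 in Rpl39l, while Rpl7a had 21 and Rpl35 had 18. In Rpl7a and Rpl35 the run lies across the annotated start, and in the 4 X-linked members it lies upstream of it. RefSeq starts may differ from the starts used in these tissues.

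RefSeq promoters matched 54 of the 74 members, with 64 promoters. A run of at least 8 pyrimidines lay in 39 of 64 (60.94%) within 60 bases before to 20 after the start, against 31.2% of 32851 promoters of all genes, and the median longest run was 10 bases in members and 6 in all promoters. Within 250 bases before to 50 after the start, on both strands, the letters CCGGAAG (the core bound by GABPA) were found in 35.94% of member promoters and 8.86% of all. GCCATNTT, the core of a YY1 site, lay in 21.88% and 6.05%, and 1 member promoter held both cores. TATAAA lay in 9.38% of member promoters and 13.62% of all. A match describes letters in a window and not a bound site.

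In marrow progenitors of K36M mice 34 of the 74 ribosomal protein mRNAs fell, by small amounts. From here on levels are CPM scaled within the tissue, and fits use its 6 libraries. EdgeR's quasi-likelihood test called 34 lower and 2 higher in K36M against WT, where 24.6% of all genes were called lower and 23.5% higher. The members' median log2 fold change was -0.15, against -0.02 over all genes. Of 29 small subunit genes 19 were lower (median -0.18), and of 45 large subunit genes 15 (median -0.13). The 2 groups did not overlap for 68 members, 64 of them lower in K36M. In every comparison, overlap was counted for members alone. Such counts therefore have no share over all genes beside them and only describe the members.

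Rps29, a small zinc-binding protein of the small subunit, stood at 236 and 216 CPM in WT and 185 and 152 in K36M (log2 -0.43 ± 0.10, adjusted p = 0.009805). Rpl39 had 230 and 205 CPM in WT and 167 and 163 in K36M (-0.40 ± 0.07, adjusted p = 0.003263). Values for Rps28, which binds the mRNA exit of the small subunit, were 197 and 180 against 151 and 141 CPM (-0.37 ± 0.08, adjusted p = 0.004916). For these 3 genes, both K36M libraries lay below both WT libraries. Without the second K36M mouse, Rps29 had -0.28 and Rps28 -0.31, neither past the threshold. Rps21 fell by 0.34 ± 0.07 (adjusted p = 0.004724). Of the other X-linked members, Rpl36a fell by 0.27 ± 0.06 and Rpl10 by 0.23 ± 0.06, while Rps4x, at 1444 and 1416 against 1249 and 1343 CPM, did not pass (-0.14 ± 0.05, adjusted p = 0.05694).

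Against this trend, Rplp0, the base of the ribosomal stalk, had 1411 and 1429 CPM in WT and rose to 1838 and 1844 in K36M (0.38 ± 0.05, adjusted p = 0.0005735). Rps2, at the entry of the mRNA channel, rose from 1355 and 1322 to 1497 and 1515 CPM (0.17 ± 0.05, adjusted p = 0.02993). The K36M libraries were above the WT libraries for both genes, and the call of Rps2 was lost without either K36M mouse, without the second WT mouse and by library size alone. Members with longer transcripts had higher values: Spearman's rho between transcript length and log2 fold change was 0.38 over 74 members, which share libraries and depth. Of the 37 shorter members 21 were lower and 0 higher (median -0.18), and of the 37 longer ones 13 were lower and 2 higher (median -0.13).

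**Figure D3:**
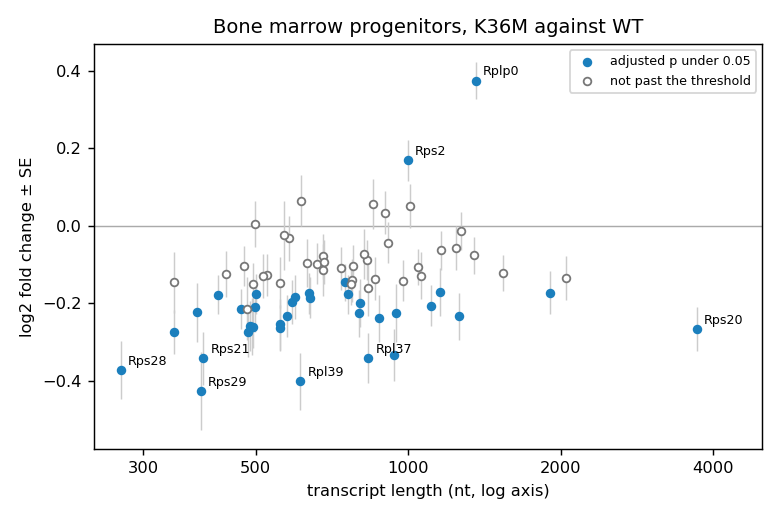
Log2 fold change of each member in K36M against WT marrow progenitors (± SE) by transcript length (log axis). The length is that of the shortest annotated coding transcript, with transcripts that have a consensus coding sequence (CCDS) model taken first. Filled points passed an adjusted p of 0.05. Rps29, Rpl39 and Rps28 lie lowest, 13 of the 37 longer members are also filled points below 0, and Rplp0 and Rps2 are the filled points above 0.

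Lineage markers moved in the same libraries. The summed level of 6 granulocyte and monocyte genes was 18080 and 14150 CPM in WT and 4774 and 3611 in K36M, that of 6 erythroid genes 167 and 311 against 660 and 717, and that of 9 proliferation genes 3348 and 3359 against 4832 and 4832. None of the genes in these 3 lists was at 0, and their part in the fall of the members was not tested. The count depends on single mice: it was 5 without the second K36M mouse, 21 without the first, 15 without the first WT mouse, and 0 in a fit of all 18 libraries.

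Few members passed the test in K9M marrow. EdgeR called 1 of 74 higher (background 0.589%) and 0 lower (0.418%), with 1 and 17 at an unadjusted p under 0.05, and 1 higher and 3 lower by DESeq2. All backgrounds given in these results belong to edgeR's adjusted test in the main fit. Counts at an unadjusted p, by DESeq2 or in other alternatives have no share over all genes beside them. The median log2 fold change was -0.08, against -0.00 over all genes, and the groups did not overlap for 45 members, 42 of them lower. Rplp0 was the member that rose, to 1820 and 1725 CPM in K9M from 1411 and 1429 in WT (0.32 ± 0.05, adjusted p = 0.02302). This call was lost without the second WT mouse or either K9M mouse, and in the fit of 18 libraries. Rps15a, at 519 and 505 against 424 and 413 CPM, came closest to a fall (-0.29 ± 0.05, adjusted p = 0.05638).

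In K9M marrow Rps3a1, the gene of the small subunit protein eS1, changed more than any member, although it is outside the symbol rule. It stood at 940 and 912 CPM in WT, 592 and 578 in K9M and 784 and 776 in K36M, and it fell in K9M by 0.66 ± 0.05 (adjusted p = 0.0009497) and in K36M by 0.25 ± 0.05 (adjusted p = 0.004622). Its copy Rps3a3 stood at 2.91 and 2.67 CPM in WT, 196 and 185 in K9M and 2.43 and 2.50 in K36M, and Rps3a2 at 2.58 and 1.84, then 14.6 and 14.2, then 1.74 and 2.44. Reads of such near-identical copies can be divided or dropped in counting, so the level of each alone is uncertain. Fau, the fusion gene of eS30, fell in K36M by 0.21 ± 0.07 (adjusted p = 0.02935). Of the paralogs tested in marrow, Rps4l rose in K9M, from 7.93 and 6.805 to 19.0 and 16.0 CPM (1.24 ± 0.21, adjusted p = 0.03971), a call lost without the second WT mouse or either K9M mouse. Rpl22l1, a paralog of Rpl22, fell in K36M from 139 and 133 to 87.4 and 94.1 CPM (-0.58 ± 0.08, adjusted p = 0.001105).

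Named pseudogenes of 4 members differed over 8-fold between marrow libraries. Rps13-ps1 stood at 0.282 and 0.322 CPM in WT, 54.2 and 53.0 in K9M and 0.297 and 0.222 in K36M. Its parent Rps13 had 401 and 385 CPM in WT, 354 and 349 in K9M and 349 and 337 in K36M. With its 7 named pseudogenes added, Rps13 came to 411 and 395, 414 and 407, and 358 and 347 CPM, so WT and K9M overlapped in the sum and not in the parent alone. Rpl3-ps1 was at 6.24 and 6.71 CPM in WT and 53.3 and 52.3 in K9M, beside Rpl3 at 1088 and 1057 and at 909 and 897. With its 2 named pseudogenes added, Rpl3 came to 1098 and 1065 CPM in WT and 964.5 and 951.1 in K9M, so the groups stayed apart. Rps15a-ps8 had no count in either WT library and 3.68 and 4.40 CPM in K9M. Rps15a with its 8 named pseudogenes came to 527.6 and 515.6 CPM in WT and 446.9 and 435 in K9M, also apart.

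Rplp0-ps1 went the other way, with 9.15 and 9.33 CPM in WT, 0.115 and 0.144 in K9M and 0.248 and 0.111 in K36M, while Rplp0 rose in both mutants. In testes Rplp0-ps1 was at 1.68 and 1.55 CPM in WT and at most 0.136 in the mutants, and Rplp0 at 306 and 329 CPM in WT, 469 and 425 in K9M and 442 and 465 in K36M (0.52 ± 0.13 in K36M, called, and 0.50 ± 0.13 in K9M, not called). In intestine Rplp0-ps1 was at 1.70 and 0.339 CPM in WT and at most 0.0607 in the mutants, where Rplp0 stood at 227 and 133 in WT, 138 and 171 in K9M and 226 and 392 in K36M, overlapping. In marrow, the counts of Rplp0 and its pseudogene together stood at 1420 and 1438 CPM in WT and 1821 and 1726 in K9M. Reads without a unique alignment are not in these counts, and their part in the rise of Rplp0 was not tested. Over all 190 named ribosomal protein pseudogenes, marrow libraries held 0.460 and 0.477 pseudogene counts per 100 member counts in WT, 0.709 and 0.691 in K9M and 0.459 and 0.464 in K36M. Without those 4 pseudogenes the values were 0.429 and 0.443, 0.479 and 0.453, and 0.444 and 0.449. Adding pseudogene counts to their parents left 31 members called in K36M marrow, 29 lower and 2 higher, and 1 in K9M.

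**Figure D4:**
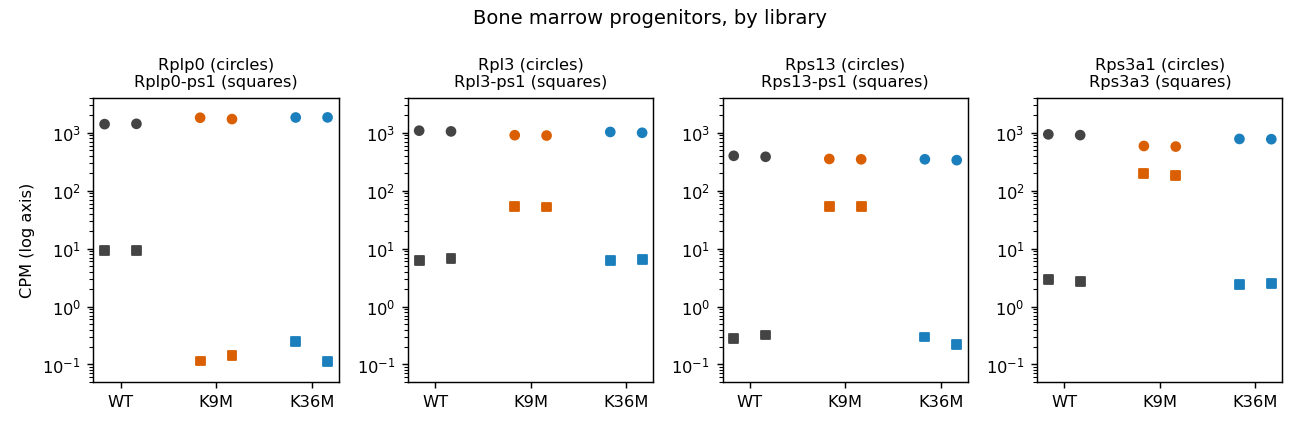
CPM on a log axis, in the 6 marrow libraries, of 4 ribosomal protein genes (circles) and a pseudogene or copy of each (squares). Rpl3-ps1, Rps13-ps1 and Rps3a3 are high in the 2 K9M libraries and Rplp0-ps1 in the 2 WT libraries, while the parent genes move by less than 2-fold.

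In intestine the level of the members varied widely between mice of a group. The median member level was 106 and 63.2 CPM in WT, 48.0 and 62.4 in K9M and 85.7 and 123 in K36M. EdgeR called 0 of 74 members in K9M against WT (background 0.147% higher and 0.0632% lower), with 9 lower at an unadjusted p under 0.05 and 0 by DESeq2. The log2 fold change was below 0 for 73 of 74, with a median of -0.49 against -0.01 over all genes, and the groups did not overlap for 36 members, each lower in K9M. Rps15a had the lowest value, at 82.7 and 49.9 CPM in WT and 28.2 and 36.9 in K9M (-1.03 ± 0.33, adjusted p = 0.3645), while X-linked Rpl10, at 171 and 140 against 164 and 159 CPM, was the member above 0. The median was below 0 in each alternative, at -0.16 without the first WT library and -0.79 without the second, and without the filter on low counts 16 members were called lower, and in the fit of all 18 libraries 1.

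In K36M intestine the median lay above WT, with no member past the test. EdgeR called 0 of 74 members (background 11.7% higher and 11.7% lower), with 5 higher at an unadjusted p under 0.05 and 5 higher by DESeq2. The median log2 fold change was 0.25 against -0.02 over all genes, and 13 members did not overlap with WT, each higher. Rpl18 stood at 178 and 138 CPM in WT and 220 and 267 in K36M (0.62 ± 0.19, adjusted p = 0.0591), and Rpl9 at 137 and 92.7 against 190 and 177 (0.67 ± 0.22, adjusted p = 0.06723). Rps29, at 49.3 and 32.8 against 35.5 and 35.6 CPM, was among the 9 members below 0. Without the second WT mouse the median was -0.05, without the second K36M mouse -0.04, and without the first K36M mouse 2 members were called higher. Longer members had the higher values here too (Spearman's rho 0.38 over the 74), but rho was 0.05 in K36M testes and negative between WT tissues, -0.38 for intestine and -0.38 for testes against marrow. The paralog Rps27l fell by 0.64 ± 0.14 (adjusted p = 0.02444), a call lost without either WT mouse or the first K36M mouse.

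Compared with each other, K36M intestine was above K9M intestine for 19 members and below for 0, where 12.2% and 12.9% of all genes were called higher and lower. The median log2 difference was 0.82, and for 67 members both K36M libraries lay above both K9M libraries. Rps4x stood at 70.9 and 112 CPM in K9M and 181 and 261 in K36M (1.27 ± 0.36, adjusted p = 0.04452), and Rps18, in the head of the small subunit, at 47.1 and 68.0 against 118 and 154 (1.25 ± 0.35, adjusted p = 0.04591). Rack1, a scaffold on the small subunit outside the symbol rule, was higher by 1.22 ± 0.33 (adjusted p = 0.04109). The count fell to 0 without either K9M mouse and to 1 without the second K36M mouse, and DESeq2 called 48 higher.

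Other genes of the crypt and of secretory cells varied in the same intestine libraries. The summed level of 9 proliferation genes was 221 and 78.3 CPM in WT, 48.2 and 69.7 in K9M and 34.7 and 222 in K36M, so in each group the mouse with more of them was also the mouse with the higher member level. For 4 crypt stem cell genes the sums were 127 and 45.5, then 21.6 and 46.2, then 17.6 and 61.2 CPM. Most of each sum was Olfm4, at 111 and 39.7, then 16.7 and 39.3, then 9.63 and 45.8 CPM. Of the 4, Lgr5 alone was highest in both K36M libraries, at 2.99 and 7.40 CPM against at most 0.914 in WT and K9M. For 5 goblet cell genes the sums were 7890 and 9077, then 3992 and 4469, then 507 and 855 CPM. Other secretory lists did not follow the goblet cell genes. The 5 enteroendocrine genes summed to 148 and 141, then 206 and 187, then 375 and 326 CPM, although Gcg had no count in K36M. The 5 Paneth cell genes summed to 158 and 94.8, then 344 and 286, then 301 and 199 CPM, although Ang4 was lowest in K36M. No gene of the other lists given here was at 0. The part of these lists in the members' levels was not tested.

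In testes of K36M mice the X-linked members were higher. Rpl39 stood at 3.001 and 3.99 CPM in WT, 3.83 and 4.39 in K9M and 7.92 and 10.5 in K36M, a rise of 1.39 ± 0.24 on the log2 scale against WT (adjusted p = 0.005525). Rps4x stood at 12.2 and 13.2, 13.2 and 13.8, and 23.5 and 32.5 CPM (1.14 ± 0.18, adjusted p = 0.004679). The values for Rpl10 were 15.2 and 17.3, 15.9 and 17.8, and 29.9 and 40.1 CPM (1.10 ± 0.18, adjusted p = 0.004765). For all 3, the K36M libraries lay above the other 4, which overlapped with each other for Rpl10 and Rpl39. Rpl36a, at 2.52 and 3.61, 4.40 and 4.53, and 5.52 and 6.72 CPM, rose by 0.98 ± 0.24 (adjusted p = 0.01531).

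These were the 4 largest rises of the 74, and summed over the 4 genes WT testes held 33.0 and 38.0 CPM and K36M testes 66.9 and 89.8. Scaled over the 18 libraries, each of the 4 stayed below its level in every marrow and intestine library: Rpl39 reached 9.78 CPM in testes and its lowest level elsewhere was 25.4, and Rps4x reached 30.1 against 99.9. Of 780 other X-linked genes tested, 421 were higher and 20 lower in K36M testes, with a median of 0.77. Without the first WT mouse Rpl39 had a log2 value of 1.20, Rps4x 1.08, Rpl10 1.01 and Rpl36a 0.75, and none of the 4 passed the threshold.

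Of the 5 paralogs given here, Rpl10l and Rps27l fell in K36M testes. Rpl10l stood at 163 and 160 CPM in WT, 180 and 163 in K9M and 91.4 and 48.5 in K36M (-1.21 ± 0.28, adjusted p = 0.01303), with K36M below the other groups, and this call was lost without either WT mouse. Rpl39l, at 179 and 191, 194 and 170, and 155 and 124 CPM, had -0.41 and did not pass (adjusted p = 0.0636). Rps27l, a paralog of Rps27 induced by p53, fell by 0.34 ± 0.11 (adjusted p = 0.04064). Rps4l stood at 65.5 and 65.5 CPM in WT and 59.1 and 43.2 in K36M, and Rpl36al at 30.7 and 28.6 against 26.3 and 24.5, neither past the threshold.

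Across all members, edgeR called 20 of 74 higher and 5 lower in K36M testes, where 25.7% of all genes were called higher and 23.8% lower. The median log2 fold change was 0.10 against 0.02 over all genes. Scaling by library size alone gave 9 higher and 12 lower and moved the median to -0.04 for the members and -0.12 over all genes, while the 4 X-linked members were higher under each scaling tried. Among autosomal members, Rps20 rose from 196 and 209 to 296 and 365 CPM (0.71 ± 0.15) and Rps19, known for its mutations in Diamond-Blackfan anaemia, from 32.8 and 31.9 to 45.3 and 50.2 (0.56 ± 0.12). Falls were led by Rps27a, whose product is made as a fusion with ubiquitin, from 63.2 and 70.2 to 49.2 and 43.8 CPM (-0.52 ± 0.13). Rpl7a fell by 0.51 ± 0.12, Rpl9 by 0.47 ± 0.12 and Rpl15 by 0.45 ± 0.12, and for the 6 autosomal members named here K36M and WT did not overlap (adjusted p from 0.01053 to 0.021).

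Of the ribosomal proteins outside the symbol rule, Fau rose from 79.3 and 80.3 to 96.8 and 119 CPM (0.43 ± 0.15, adjusted p = 0.04957). Cell-type markers also moved in K36M testes. The sum of 5 spermatocyte genes was 941 and 949 CPM in WT and 366 and 153 in K36M, that of 5 elongating spermatid genes 9792 and 10020 against 21090 and 31250, and that of 5 Sertoli cell genes 803 and 832 against 2081 and 2834. The 5 Leydig cell genes summed to 456 and 360 against 64.5 and 46.2 CPM and 5 round spermatid genes to 903 and 891 against 928 and 891, with no gene of these lists at 0. Within the round spermatid list the genes moved in both directions. Acr went from 197.8 and 194.9 to 162.6 and 109 CPM and Catsper3 from 69.4 and 69.3 to 61.6 and 44.4. Tssk1 went up from 279.3 and 274 to 339.7 and 415.5 CPM, and Acrv1 and Spaca1 overlapped between WT and K36M. The part of these markers in the members' changes was not tested. The count of called members was 0 without the first WT mouse, 4 without the second, 44 without the first K36M mouse and 6 in the fit of 18 libraries.

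No member passed the test in K9M testes. EdgeR called 0 of 74 (background 0.0261% higher and 0.0418% lower), with 1 and 1 at an unadjusted p under 0.05, and 0 by DESeq2. The median log2 fold change was 0.09 against 0.01 over all genes, and 33 members did not overlap with WT, 30 higher and 3 lower. Rplp0 had the lowest unadjusted p, with a log2 value of 0.50 ± 0.13, and Rps15a, at 86.0 and 101 CPM in WT and 74.2 and 67.2 in K9M, the lowest value (-0.40 ± 0.13). Rps13-ps1 was at 0.0600 and 0.141 CPM in WT testes and 25.5 and 12.9 in K9M testes, and Rps13 at 86.0 and 93.1 against 74.4 and 82.4.

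**Figure D5:**
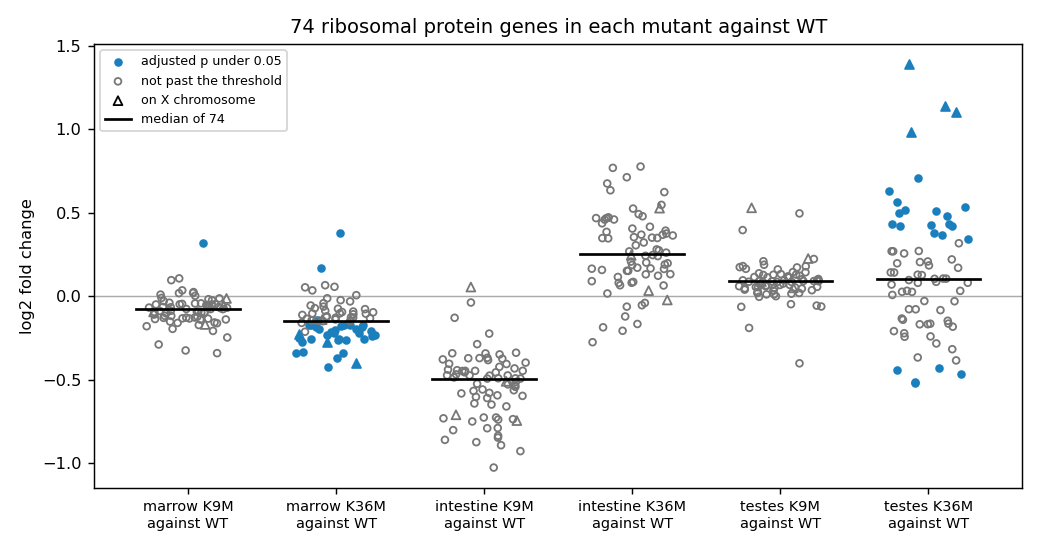
Log2 fold change of each of the 74 members in K9M and K36M against WT, by tissue; filled symbols passed an adjusted p of 0.05, triangles are on the X chromosome and bars are medians. The 4 triangles at the top of the K36M testes column are Rpl39, Rps4x, Rpl10 and Rpl36a, and 34 filled symbols lie below 0 in K36M marrow. The 2 mutants of a tissue share its WT libraries.

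Set directly against K9M, K36M marrow had 12 members lower and 4 higher (background 27.8% and 26.0%), DESeq2's size factors gave 11 and 6, and library size alone 29 and 0. Rpl39 had 213 and 206 CPM in K9M and 167 and 163 in K36M (-0.34 ± 0.07) and Rps27 had -0.30 ± 0.06, while Rpl27 was higher, at 145 and 141 against 167 and 163 CPM (0.21 ± 0.07), and so was Rpl14 (0.18 ± 0.06), with adjusted p of at most 0.02877 for the 4. There were 5 calls without the first K9M mouse, 8 without the second, 8 without the first K36M mouse and 4 without the second. In testes 9 members were higher in K36M than in K9M (25.4%) and 9 lower (23.9%), against 5 and 15 by library size alone, which moved the median over all genes from 0.02 to -0.11. Rpl39 was higher by 1.16 ± 0.23, Rpl10 by 1.06 ± 0.18 and Rps4x by 1.05 ± 0.18, Rpl36a did not pass, and Rps27a (-0.61 ± 0.13) and Rpl9 (-0.54 ± 0.12) were the lowest of the called members. That count was 0 without either K9M mouse, 44 without the first K36M mouse and 33 without the second.

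Whether a mutant's effect differed between tissues was tested as an interaction over the 18 libraries. The K36M effect differed between marrow and testes for 3 members, each lower in marrow (background 12.1% lower and 12.7% higher, with 0 members higher): Rpl39 by -1.72 ± 0.42, Rpl10 by -1.26 ± 0.26 and Rps4x by -1.21 ± 0.41 (adjusted p = 0.009045, 0.003857 and 0.04681). Without the first WT testes library this count was 1. Between intestine and testes it differed for 5 members, 2 lower (14.9%) and 3 higher (11.1%) in intestine, against 0 and 5 by library size alone and 2 and 5 by DESeq2's size factors. Rpl39 had -1.52 ± 0.43 and Rpl10 -0.95 ± 0.26, and Rpl7a had 1.06 ± 0.24, Rpl9 1.05 ± 0.28 and Rpl18 0.71 ± 0.23, with adjusted p from 0.005726 to 0.03752. With the mouse as a block Rpl7a and Rpl9 were called, and Rpl39, Rpl10 and Rpl18 were not. Among intestine libraries, the count was 22 without the first WT, 13 without the second WT and 3 without the first K36M, and among testes libraries 2 without the first WT, 3 without the second WT and 1 without the second K36M.

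Between marrow and intestine the K36M effect was called for 0 members (background 9.81% higher and 7.44% lower), with 4 lower in marrow at an unadjusted p under 0.05 and 7 lower by DESeq2. That count was 26 without the first WT intestine library. The K9M effect in intestine against testes was called for 0 members (0.103% higher and 0.0894% lower), and for 0 by DESeq2. At an unadjusted p under 0.05 in edgeR's test, 31 were lower in intestine, a count without a share over all genes beside it. The 2 WT intestine libraries, with member shares of 0.998% and 0.566%, enter each of these contrasts with intestine, and the first is the library with spermatid transcripts.

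Other genes that build and use ribosomes were counted against the shares of all genes given above, 23.5% higher and 24.6% lower in K36M marrow. Of 3637 other genes with a mean level at or above that of the lowest member, 1414 were higher and 764 lower there. This set has a floor and was not matched to the members in level. Of 49 tested ribosome assembly factors 38 rose and 1 fell, among them Ddx21, a nucleolar helicase, from 453 and 481 to 824 and 895 CPM (0.88 ± 0.06) and Bysl, needed for the small subunit, from 54.2 and 55.8 to 104 and 105 (0.92 ± 0.07). Of 20 translation initiation factors 17 rose and 0 fell, with Eif5b, which joins the subunits, at 252 and 256 against 407 and 408 CPM (0.68 ± 0.06). Of 15 other genes with TOP mRNAs 3 rose and 5 fell. Among 21 regulators 3 rose and 5 fell, including Myc, a driver of ribosome synthesis (-0.54 ± 0.07), and Pdcd4, an inhibitor of initiation (-1.22 ± 0.08). Adjusted p for the named genes was 0.0005473 or less.

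In K36M intestine, where 11.7% of all genes were higher and 11.7% lower, 5 of 49 assembly factors rose, with Nat10, an RNA acetyltransferase, from 11.9 and 8.21 to 48.7 and 41.4 CPM (2.16 ± 0.23), and 1 initiation factor, Eif5 (1.09 ± 0.15). The TOP genes Tpt1 (0.80 ± 0.18) and Eef2, elongation factor 2 (0.74 ± 0.18), rose there too. So did Eif4ebp1, the mTOR target that restrains cap-dependent translation, from 4.996 and 5.77 to 44.3 and 33.5 CPM (2.85 ± 0.29). In K36M testes 10 of 49 assembly factors rose and 15 fell, against 25.7% and 23.8% of all genes, with Ubtf, which activates ribosomal RNA genes, up by 1.59 ± 0.20 and Bysl down from 36.1 and 37.2 to 18.3 and 16.5 CPM. Initiation factors had 7 rises and 4 falls, led by the X-linked Eif1ax at 75.1 and 77.0 against 162 and 216 CPM (1.31 ± 0.16), TOP genes 4 and 2, and regulators 8 and 4. In K9M edgeR called 0 genes of these 4 lists in each tissue, and of the 49 assembly factors 2 in marrow, 0 in intestine and 0 in testes had an unadjusted p under 0.05, the 2 being lower in K9M; DESeq2 counts were not made for these lists.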

How the data were processed

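The deposited values were counts of reads per Ensembl gene ID, made by the authors with STAR and HTSeq on build mm9 per the submitters' processing notes; versions and strand use are not given in the sources used here. Entries naming no gene were left out: 9.89% to 26.0% of a library had no feature, 2.21% to 4.17% were ambiguous and 15.3% to 29.1% not uniquely aligned. Symbols came from GENCODE M21 by gene ID. Members and gene lists were chosen with earlier results of these data known. Counts were tested with edgeR 4.0.16 (R 4.3.3, limma 3.58.1; TMM scaling, filterByExpr, robust quasi-likelihood test, Benjamini-Hochberg adjustment over all genes tested, 0.05), within a tissue on 6 libraries and across tissues on 18; DESeq2 1.42.0 was an alternative. The fit within a tissue was run on simulated counts with the library sizes of marrow and testes and the same spread for every gene. Fits of intestine and of 18 libraries were not simulated. Named genes were the 4 largest called rises and falls per comparison with mutants or between WT tissues whose groups did not overlap (2 for other tests), the X-linked members, paralogs, other ribosomal proteins, parents of pseudogenes that varied over 8-fold, members highest or lowest per kb or in spread, and 2 genes per pathway list; Rps24, Rps7, Rps29 and Rps13 in comparisons outside this rule, and Eif1ax for its chromosome, were named after their values were seen. Results for 2 genes under this rule are not reported here. Intestine and testes share mice by their labels; deviations from group means correlated over all genes with r = 0.0529 in WT, 0.113 in K9M and -0.0605 in K36M. Alternatives changed scaling, filter, tool, libraries fitted, the block and pseudogene reads.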

Additional observations from a re-analysis of the deposited data

Results flagged for a closer look

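The K36M effect differed between tissues for 6 members by a test of the difference itself, an interaction term in edgeR's quasi-likelihood fit of 18 libraries. For marrow against testes, 4.05% of members were lower and 0% higher, against 12.1% and 12.7% of all genes. For intestine against testes, 2.7% of members were lower and 4.05% higher, against 14.9% and 11.1% of all genes. Members were thus called less often than genes at large. For Rpl39 the log2 effect was lower in marrow than in testes by 1.72 (value -1.72) and lower in intestine than in testes (-1.52). Rpl10 had -1.26 for marrow against testes and -0.95 for intestine against testes. The difference for Rps4x between marrow and testes was -1.21. In the opposite direction, Rpl7a (1.06), Rpl9 (1.05) and Rpl18 (0.71) had a higher K36M effect in intestine than in testes. The comparisons with intestine and with marrow share the testes libraries. With the mouse as a replicate block, the calls of Rpl39, Rpl10 and Rpl18 between intestine and testes were lost and those of Rpl7a and Rpl9 held. By library size alone, the calls of Rpl39 and Rpl10 between intestine and testes and of Rps4x between marrow and testes were lost.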

How the results depend on the processing

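With 2 mice a group, the number of members called moved with single mice and with scaling or tool, while every member stayed lower in WT intestine and in WT testes than in WT marrow (74 and 74 calls) in every alternative run. In marrow K9M, 1 call became 4 with the DESeq2 test, 5 without the filter on low counts and 0 with all 18 libraries, and 0 to 1 when each mouse was left out. In marrow K36M, 36 calls became 0 with all 18 libraries and 5 to 33 when each mouse was left out. In intestine K9M, 0 became 16 without the filter and 1 with all 18 libraries. In intestine K36M, 0 became 2 with DESeq2 size factors, 5 with the DESeq2 test, 6 without the filter and 2 with all 18 libraries, and 0 to 2 when each mouse was left out. In testes K36M, 25 became 6 with all 18 libraries and 0 to 44 when each mouse was left out. K36M against K9M, the 16 calls in marrow became 29 by library size alone and 4 to 8 when each mouse was left out, the 19 in intestine became 48 with the DESeq2 test and 0 to 24, and the 18 in testes 0 to 44. The K9M effect in intestine against testes had 0 calls and 0 to 58 when each library was left out. For the K36M effect, the 5 calls in intestine against testes became 8 with the DESeq2 test and 1 to 22, the 3 in marrow against testes 6 with DESeq2 size factors, 8 with the DESeq2 test and 1 to 3, and the 0 in marrow against intestine 3, 2 and 7 with DESeq2 size factors, library size alone and the DESeq2 test, and 0 to 26. With the mouse as a replicate block over the 12 libraries of intestine and testes, the 5 calls became 2 (5 in these libraries without the block, a fit added after seeing the data), and WT testes against WT intestine had 52 calls (54 without the block). The marrow mice allow no pairing. Direction was compared only for named results called in the main fit or in the alternative. Those that changed direction were between WT tissues. In intestine against marrow they were Fau (-0.52) and Rps27l (-0.18) by library size alone. In testes against intestine they were Rpl22l1 (0.60 by library size alone, 0.31 by the DESeq2 test) and Rps13 (0.62 by library size alone). Of the other named results, 95 gained and 291 lost the call. The remaining 4359 kept a call in the same direction or had no call in either fit, whatever their direction. Shares of all genes called in each alternative are not given here, and the cause of these changes was not tested.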
